A study of Saccharomyces cerevisiae with 4 samples.

Results

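The genes described here encode the enzymes of Saccharomyces cerevisiae that put serine, ethanolamine and choline head groups on phospholipids, together with the choline transporter. They are 10 of the 6388 gene probes on the array, and each was read from the single probe carrying its systematic name, with 3 spots per slide. The members were chosen by gene name, with the log2 ratios of these slides already known, so their values are given as a description. The study set RNA of 3 yeast strains, each kept for 45 min in 0.6 mol/L NaCl, against each other on 4 two-colour oligonucleotide arrays. BF2B, bdf1∆bdf2∆[BDF2 L][pYX242], is deleted for both bromodomain genes and bears a BDF2 construct marked L beside the plasmid pYX242. BF2S, bdf1∆bdf2∆[BDF2 L][SIR2 H], has the same deletions and BDF2 construct, with a SIR2 construct marked H. BF2, bdf1∆[pYX242][pRS316], is deleted for BDF1 alone and bears both plasmids. All 3 strains therefore lack BDF1 and all were salt-treated, and neither the meaning of L and H nor the number of clones behind a strain is given in the labels. BF2B and BF2S were each hybridised against BF2 on 2 slides, the second with the dyes exchanged, and each such pair of slides holds 1 RNA pair. With 1 replicate per comparison the spread between cultures is unknown, so no test was run, and every ± is the technical SD of 2 hybridisations.

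Phosphatidylserine, phosphatidylethanolamine and phosphatidylcholine are made in yeast by a pair of converging routes. In the de novo branch, Cho1 joins serine to CDP-diacylglycerol, Psd1 in mitochondria and Psd2 in the Golgi, endosomal and vacuolar membranes decarboxylate the product to phosphatidylethanolamine, and Cho2 and Opi3 methylate that lipid to phosphatidylcholine with S-adenosylmethionine. In the salvage or Kennedy branch, Hnm1 imports choline, the kinases Cki1 and Eki1 phosphorylate choline and ethanolamine, and Cpt1 and Ept1 transfer the activated head groups to diacylglycerol. Many genes of both branches carry a promoter element bound by the activators Ino2 and Ino4, which Opi1 represses when inositol and choline are plentiful.

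The BF2B and BF2S slides differed in quality, and not every measure favoured BF2B. Across genes above background, the 2 slides of a comparison correlated at r = 0.64 for BF2B and 0.95 for BF2S. The quartiles of the mean log2 ratio were -0.21 and 0.20 for BF2B, and -1.19 and 0.97 for BF2S. The SD of the 2 hybridisations had medians of 0.19 for BF2B and 0.21 for BF2S. Since r also depends on how widely the ratios spread, it is not read as better repeatability of BF2S. An unexplained flag marked 54.6% and 0% of gene spots on the BF2B slides. On the BF2S slides that flag marked 32.0% and 67.3%. A signal is the mean over a probe's spots of the median brightness minus local background, in scanner units. On the BF2B slides blank spots had median signals of 29 to 110 units, beside 464.5 to 667 units for gene probes. On the BF2S slides the blank medians in the channel of BF2S were 6049 and 5325 units, and in that of BF2 1708.5 and 1767.5 units, and 0 of the 10 members exceeded the blank median in the BF2S channel of either slide. BDF2 had a log2 ratio of 1.61 ± 0.03 in BF2B over BF2, while the BDF1 probe, whose gene every strain lacks, was not above background there. On the BF2S slides that BDF1 probe was above background for BF2S on the first slide, with 1579.5 units, and for BF2 on the second, with 405 units, and both go against the genotypes. Each time the strain above background was the one in the dye Cy5, and the other strain, in Cy3, was not above background. By the fold rule given below, BDF1 was called higher in BF2S over BF2, at 1.64 ± 0.28. BDF2 was not called there, at 0.65 ± 0.61. SIR2 gave a log2 ratio of 1.51 ± 0.18 in BF2S over BF2, with BF2 above background on the second slide only. The strain is for this reason called the sample labelled BF2S, and the account below rests mainly on the BF2B slides.

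In BF2B, 9 of the 10 members stood higher than in BF2 on both slides, and members of both branches were among them. PSD1 was the 1 member over 2-fold higher on both slides, at 2.52-fold. EPT1, HNM1 and CPT1 of the salvage branch stood at 2.05-fold, 1.99-fold and 1.83-fold, and OPI3, CHO2 and CHO1 of the de novo branch at 1.74-fold, 1.68-fold and 1.66-fold. The kinase genes CKI1 and EKI1 stood lower, at 1.35-fold and 1.12-fold, and PSD2 was not above background in BF2B on either slide. RNA came from whole cultures, so fewer cells carrying a transcript and less of it per cell cannot be told apart. A gene counts as called when both slides gave over 2-fold with the same sign and when, on each slide, at least 2 of its 3 spots exceeded background for one strain or the other. Of the 9 members that passed this filter, 1 was called higher and 0 lower, where 1.37% of the 4660 genes that passed it were called higher. The count of members higher on both slides, 9 of 9, stands beside 31.6% of all genes that passed. The rule that chose the members had these ratios in view, so neither count is read as support for a shared change.

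**Figure D1:**
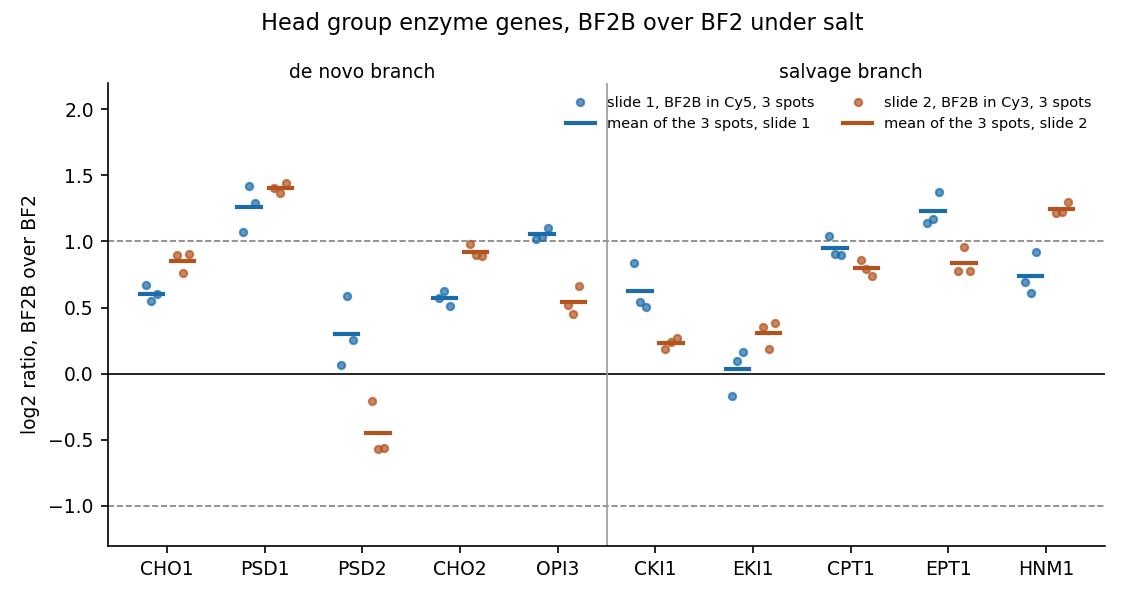
Log2 ratios of BF2B over BF2 for the 10 members, with the 3 spots of a probe as points and their mean as a bar, blue for the slide with BF2B in Cy5 and brown for the slide with BF2B in Cy3. Dashed lines mark 2-fold. Both means lie above the upper line for PSD1 alone, and PSD2 is the member whose slides lie on opposite sides of 0.

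Phosphatidylserine synthesis is the entry to the de novo branch. CHO1 (YER026C), the phosphatidylserine synthase gene, had signals of 2573 and 3266 units in BF2B on the 2 slides, against 1599 and 2022 units in BF2. After correction for intensity its log2 ratios were 0.61 and 0.85, a mean of 0.73 ± 0.17. Both slides placed BF2B above BF2, and all spots were above background in both channels.

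The decarboxylase genes PSD1 and PSD2 gave unlike values. PSD1 (YNL169C), whose mitochondrial product supplies much of the cell's phosphatidylethanolamine, had 1935 and 1894 units in BF2B, against 663 and 755.5 units in BF2. Its log2 ratios of 1.26 and 1.40 gave a mean of 1.33 ± 0.10, which ranked 41 of 4660 genes from the top. The 3 spots ran from 1.07 to 1.42 on the first slide and from 1.36 to 1.44 on the second, so each spot passed 2-fold. In the BF2 channel of the first slide, however, 0 of 3 PSD1 spots were above background, and with both channels required to be above background PSD1 was not called. PSD2 (YGR170W), the decarboxylase of the Golgi, endosomes and vacuole, had 115 and 96.2 units in BF2B, against -19 and 264.5 units in BF2. It was above background only in BF2 on the second slide. Its log2 ratios of 0.30 and -0.45 had opposite signs, and no fold is given.

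The methyltransferase genes of the same branch were bright in both strains. CHO2 (YGR157W), which makes the first methylation of phosphatidylethanolamine, had 3077 and 3940 units in BF2B, against 1985 and 2335 units in BF2. Its log2 ratios were 0.57 and 0.92, with a mean of 0.75 ± 0.25. OPI3 (YJR073C), which completes the methylation to phosphatidylcholine, had 8597 and 7646 units in BF2B, against 3903.5 and 6243 units in BF2. Here the slides disagreed in size, with log2 ratios of 1.05 and 0.54 and a mean of 0.80 ± 0.36. OPI3 passed 2-fold on the first slide but not on the second. BF2B was the brighter strain for both genes on both slides, with all spots above background.

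**Figure D2:**
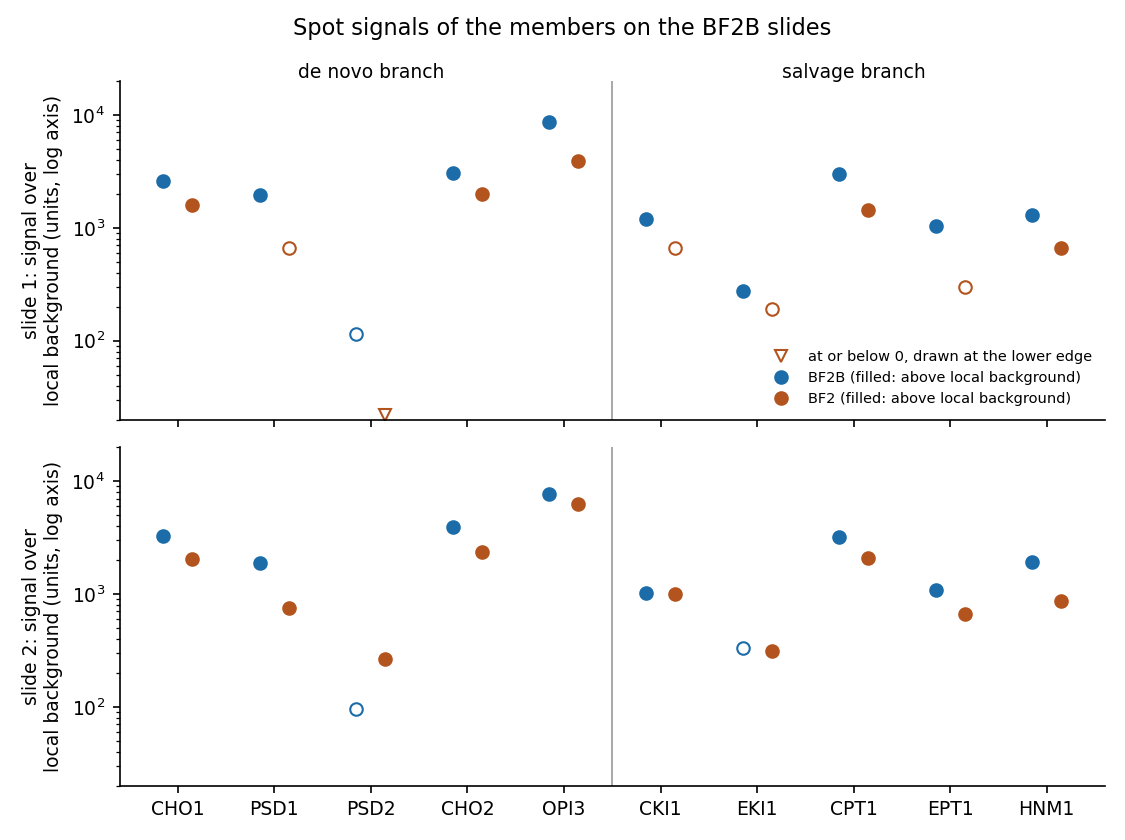
Signal over local background on a log axis for each member on slide 1 (top) and slide 2 (bottom), BF2B in blue left of BF2 in brown. Filled points had at least 2 of 3 spots above background, and the triangle marks a value at or below 0. PSD2 is dim in both strains, with at most 264.5 units, and the BF2 points of PSD1, CKI1, EKI1 and EPT1 on slide 1 are open.

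Choline enters the salvage branch through Hnm1. HNM1 (YGL077C) had 1298 and 1932 units in BF2B, against 656 and 873 units in BF2. The log2 ratios were 0.74 and 1.25, with a mean of 0.99 ± 0.36, so HNM1 passed 2-fold on the second slide only. Its 3 spots on that slide ran from 1.22 to 1.30, a narrower spread than the gap between the slides.

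The kinase genes were the members above background that lay nearest to 0. CKI1 (YLR133W), which encodes choline kinase, had 1204 and 1012 units in BF2B, against 661 and 998 units in BF2. Its log2 ratios were 0.63 and 0.23, with a mean of 0.43 ± 0.28. EKI1 (YDR147W), which encodes ethanolamine kinase, had 274 and 331 units in BF2B, against 189.7 and 311.5 units in BF2. EKI1 log2 ratios were 0.03 and 0.31, with a mean of 0.17 ± 0.19, and 1 of its 3 spots on the first slide lay below 0. EKI1 was above background in BF2B on the first slide only and in BF2 on the second only. It thus passed the filter through a different strain on each slide, but both times through Cy5. On these slides 77.2% and 75.1% of genes were above background in Cy5, against 42.7% and 44.9% in Cy3.

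The transferase genes that end the salvage branch both stood near 2-fold. CPT1 (YNL130C), the cholinephosphotransferase gene, had 2967.5 and 3225 units in BF2B, against 1427 and 2073 units in BF2. Its log2 ratios of 0.95 and 0.80 gave a mean of 0.87 ± 0.11, the closest agreement of slides among the salvage members. EPT1 (YHR123W), the ethanolaminephosphotransferase gene, had 1039.7 and 1085.5 units in BF2B, against 296 and 659 units in BF2. The log2 ratios of EPT1 were 1.23 and 0.84, with a mean of 1.03 ± 0.28, and 0 of 3 BF2 spots were above background on the first slide. EPT1 thus exceeded 2-fold in the mean but lay just outside the rule. HNM1, just under 2-fold in the mean, lay outside it too, and PSD1 was the nearest member inside. CPT1 and EPT1, and CKI1 and EKI1, are related genes, and how far a probe of one takes up RNA of the other was not tested.

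Set beside each other, the branch medians lay close together in BF2B. The median log2 ratio was 0.75 over the 5 de novo members and 0.87 over the 5 salvage members, while the median of all 4660 genes above background was -0.01. Without PSD2, which was not above background in BF2B, the de novo median over 4 members was 0.77. Those 4 members had medians of 0.83 and 0.89 on the first and second slide, beside 0.74 and 0.80 for the salvage members. Without PSD2, the slide medians thus placed the de novo branch higher and the medians of the means placed it lower, each time by 0.10 or less. Over all 5 de novo members the slide medians were 0.61 and 0.85, lower than the salvage branch on the first slide and higher on the second. No order of the branches is therefore given. Of the 20 pairs of a de novo and a salvage member above background, the de novo member had the higher mean in 11. This comparison without PSD2 by slide and by pair was added after the values were seen. Within a branch the members varied more than the branches did, between -0.07 and 1.33 in the de novo branch and between 0.17 and 1.03 in the salvage branch. For all genes above background the SD of the 2 hybridisations had a median of 0.19 and an upper decile of 0.48, and the quartiles of the mean log2 ratio were -0.21 and 0.20. Of the 9 members above background, all but EKI1 had means above the upper quartile and larger than their own SD. From PSD1 to CHO1, 7 members ranked between 41 and 189 of 4660 from the top, while CKI1 ranked 525 and EKI1 1312. At a threshold of 1.5-fold on both slides, CHO1, PSD1, CPT1, EPT1 and HNM1 passed as higher, 5 of 9 members beside 4.16% of all genes that passed the filter.

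**Figure D3:**
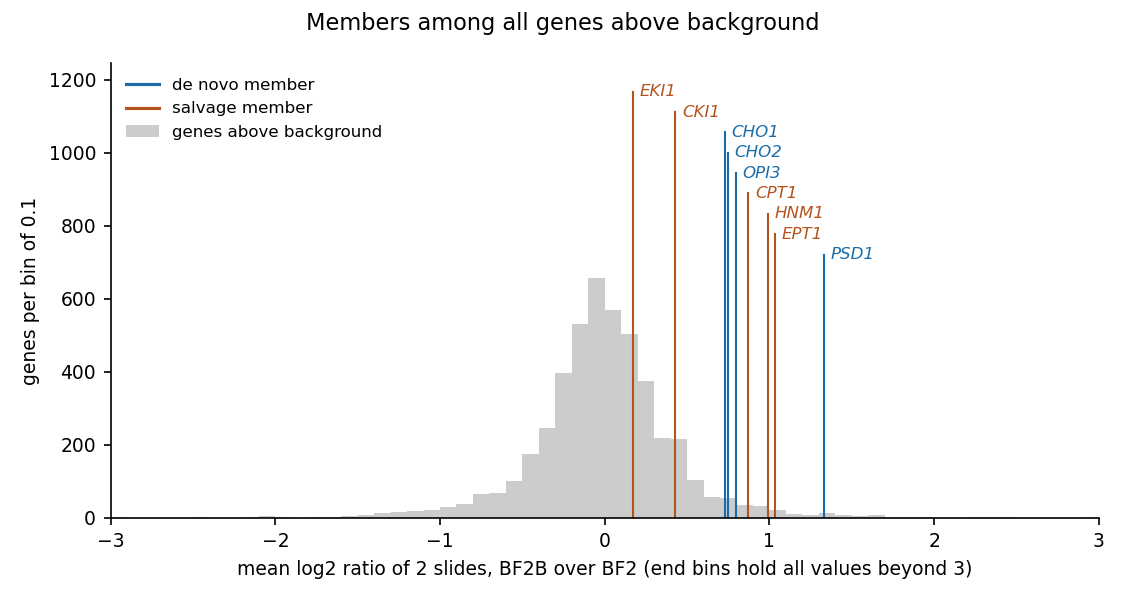
Histogram of the mean log2 ratio of BF2B over BF2 for the 4660 genes above background, with lines at the 9 members among them, blue for the de novo and brown for the salvage branch. EKI1 at 0.17 lies within the bulk of genes, CKI1 at 0.43 on its upper flank, and the others between 0.73 and 1.33, with members of both branches interleaved.

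The genes next to the members on the chromosomes were looked at too, a description added after the values were seen. Of 20 adjacent genes, 14 passed the background filter. Of these, 8 stood higher in BF2B than in BF2 on both slides, 3 lower and 3 differed in sign between slides, and 0 were called. Of all genes that passed, 31.6% stood higher on both slides. Their mean log2 ratios lay between -0.47, for RPL7A beside HNM1, and 0.48, for PDC5 beside CKI1, with a median of 0.15. The means of 7 members exceeded that highest value. Since the members were chosen with their ratios known, this is not read as a difference from the neighbours. USB1 beside CKI1, which did not pass the filter, stood at 0.56. CHO1 and CPT1 stood at 0.73 and 0.87 beside a lower neighbour each, GAL83 at -0.35 and TOM22 at -0.33. On the other side of CHO1, GCD11 stood at 0.24, higher on both slides, and DGR1 beside CPT1 had no probe. The neighbours are named after their values were seen.

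The other genes of the pathway were described from 6 lists of 41 genes, of which 39 were above background in BF2B or BF2 on both slides. Of these, 5 were called higher and 0 lower, 23 stood higher on both slides and 8 lower, and their median log2 ratio was 0.22. Over all 4660 genes that passed, 1.37% were called higher and 31.6% stood higher on both slides. The lists were chosen with earlier results known, so these counts are a description. Upstream of the branches, CDS1, which makes the CDP-diacylglycerol used by Cho1, was 2.81-fold higher, from 3114 and 3301 units in BF2B, against 899 and 1357 units in BF2. It was the 1 called gene among 9 measured genes of phosphatidic acid and CDP-diacylglycerol, whose median was -0.04. DPP1 and PAH1, phosphatases that act on phosphatidic acid, stood at -0.65 ± 0.11 and -0.41 ± 0.06, neither called, and are named after their values were seen.

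The nucleotide steps in the middle of the salvage branch were measured by a list of 4 genes. PCT1 and ECT1, which activate phosphocholine and phosphoethanolamine with CTP, had log2 ratios of -0.19 ± 0.05 and 0.00 ± 0.44, and were picked out after their values were seen. PCT1 had 607 and 581 units in BF2B, against 617 and 845 units in BF2. URA7 and URA8, which encode the CTP synthases, stood at 0.19 ± 0.25 and 0.47 ± 0.01. The kinase genes CKI1 and EKI1 stood beside them at 0.43 and 0.17. Of these 4 genes, 0 were called, and their median was 0.10. ECT1 and URA7, like EKI1, were above background only in Cy5, for BF2B on the first slide and for BF2 on the second.

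Genes of inositol supply and of Ino2 and Ino4 control lay higher. Of 10 measured, 9 stood higher in BF2B on both slides, 2 were called higher and 0 lower, and the median was 0.60. INO1, which makes inositol phosphate and is the classic target of Ino2 and Ino4, had 11326 and 12241.5 units in BF2B, against 261 and 491 units in BF2, where it was above background on the second slide only. The called genes were INO1, at 4.57 ± 0.02, and the inositol transporter gene ITR1, at 1.72 ± 0.17 from 17255 and 15779 units in BF2B, against 4297.5 and 6279 units in BF2. The regulator genes themselves were not called, with INO2 at 0.21 ± 0.25, INO4 at 0.42 ± 0.08 and OPI1 at 0.35 ± 0.38. FAS1, FAS2 and ACC1, which encode the enzymes of fatty acid synthesis, stood at 0.56 ± 0.10, 0.71 ± 0.04 and 0.64 ± 0.31. The uncalled genes of this list are named after their values were seen.

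Methyl donor genes were also high. All 5 measured genes stood higher in BF2B on both slides, with a median of 1.00. SAM2, which makes the S-adenosylmethionine that Cho2 and Opi3 consume, was called at 2.24 ± 0.33, and SAH1, which hydrolyses the S-adenosylhomocysteine they release, at 1.54 ± 0.32. SAH1 had 4838.5 and 7138 units in BF2B, against 1816.5 and 2354 units in BF2. These values sit beside the more modest ratios of CHO2 and OPI3 themselves, 0.75 and 0.80.

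The remaining lists lay near 0. Of 4 measured genes for other phospholipid classes 0 were called, with a median of -0.08. TAZ1 and GEP4, of cardiolipin synthesis and remodelling, stood at -0.24 ± 0.19 and 0.23 ± 0.10. On each slide TAZ1 was above background only in Cy5. PIS1, which competes with Cho1 for CDP-diacylglycerol to make phosphatidylinositol, stood at -0.09 ± 0.09 and is named after its value was seen. Of 7 phospholipid turnover genes 0 were called, with a median of 0.04, and the phospholipase B genes PLB3 and PLB2 stood at 0.98 ± 0.35 and 0.49 ± 0.03.

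**Figure D4:**
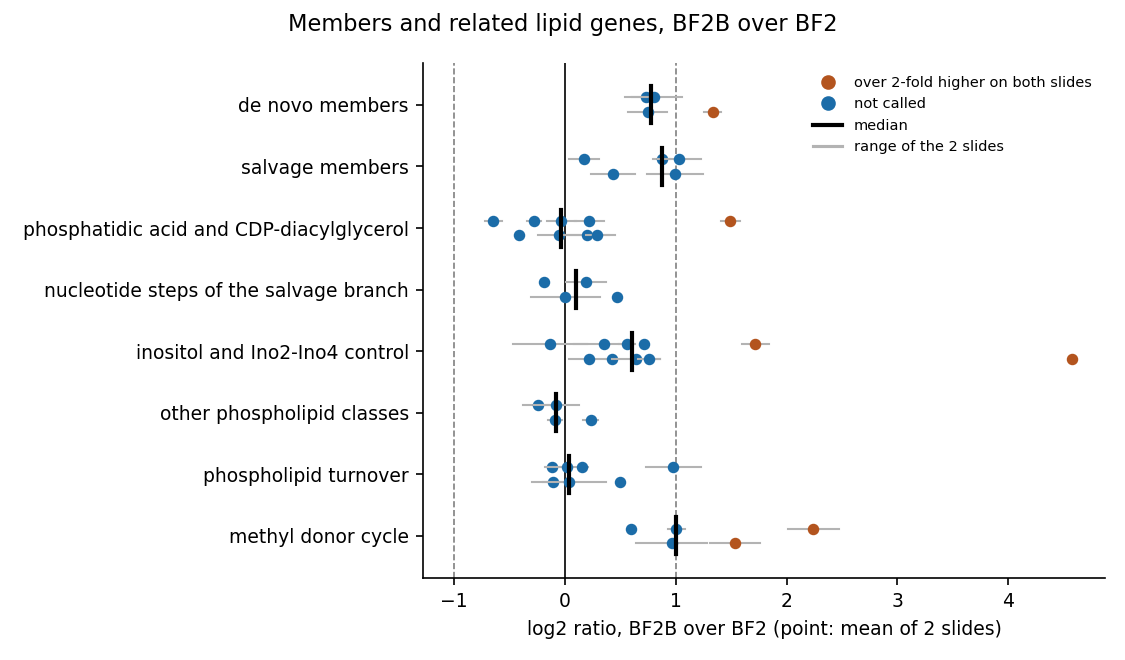
Mean log2 ratio of BF2B over BF2 (points) with the range of the 2 slides (grey lines) for the members above background and the genes of 6 related lists, with brown for genes over 2-fold higher on both slides and a black bar for the median of the genes above background. Both member branches, the inositol list and the methyl donor list have medians between 0.60 and 1.00, and the other 4 lists between -0.08 and 0.10.

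The comparison of the sample labelled BF2S shares BF2 with that of BF2B, so its values are given by themselves. In this sample 5 members were called lower and 1 higher. The lower ones were CHO1 of the de novo branch and CKI1, CPT1, EPT1 and HNM1 of the salvage branch, and the higher one was PSD2. For the 10 members these counts stand beside 25.1% of 5290 genes called lower and 19.3% called higher, and beside 45.0% lower and 46.9% higher on both slides, where 6 members were lower and 4 higher. None of these 5 lower members was above background for BF2S on either slide. Only bounds can therefore be given, and for EPT1 not even a bound above 1. Each bound takes the lowest signal above background as its floor, and signals not above background can lie over that floor. FAS2 was not above background for BF2S on either slide, yet its corrected BF2S mean was 9.94 in log2 units. The corrected BF2 mean of CKI1 was 9.71, so the bounds are not strict lower limits. The bounds hold for the main processing only, and some alternatives gave smaller ratios. With genes required to exceed the 95th percentile of blank spots as well, 0 members were called.

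In the de novo branch of that sample the signals spread widely. CHO1 had 503 and 188 units in the sample labelled BF2S, against 2576.5 and 3545 units in BF2. In the main processing its bound was 3.22-fold lower. Its log2 ratio was -1.66 without flagged spots and -1.18 with scaling between slides, both smaller than that bound. On both slides 0 CHO1 spots were flagged, so the first of these values came from a loess fit without flagged spots of other genes. PSD2 had 5036 and 4771 units there, against 1389 and 1714 units in BF2, with log2 ratios of 1.59 and 1.98. PSD1 had 3769 and 4392 units in the sample labelled BF2S, against 2077 and 2625.5 units in BF2, and log2 ratios of 0.72 and 1.72. PSD2, although called higher, lay below the median of the blank spots in both channels of both slides. CHO2 stood at 0.16 and 0.24, from 3588 and 2307 units in the sample labelled BF2S, against 4110 and 5282 units in BF2. OPI3 stood at -1.06 and -0.24, from 2307 and 1814 units in the sample labelled BF2S, against 9134 and 9468 units in BF2, and its 3 spots on the second slide ran from -0.87 to 0.26. Neither CHO2 nor OPI3 was called.

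In the salvage branch the signals of the sample labelled BF2S were mostly at the level of local background. CPT1 had -11 and -680 units there, against 2040 and 1583 units in BF2, with a bound of 1.74-fold lower. CKI1 had 158 and -508 units in the sample labelled BF2S, against 1314 and 1395.5 units in BF2. In the main processing its bound was 1.32-fold lower, but without flagged spots its log2 ratio was -0.034. That value is of the first slide alone, since all 3 CKI1 spots on the second slide were flagged. On the first slide, where the main value was -2.45, 0 CKI1 spots were flagged, and the loess fit left out flagged spots of other genes. Negative signals mean spots dimmer than their surroundings, which the second slide showed for CPT1, CKI1, HNM1 and EPT1. HNM1 had 94.7 and -710.3 units in the sample labelled BF2S, against 836.5 and 1165 units in BF2, for which the bound was 1.09-fold. EPT1 had 237 and -241 units in the sample labelled BF2S, against 778 and 1089 units in BF2, and gave no bound above 1. These BF2 signals lay below the blank medians of the BF2 channel apart from CPT1 on the first slide. EKI1 was not called, with log2 ratios of 0.20 and 0.52 from 994 and 464 units in the sample labelled BF2S, against 630 and 788.5 units in BF2, and its BF2S spots were above background on the first slide only.

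**Figure D5:**
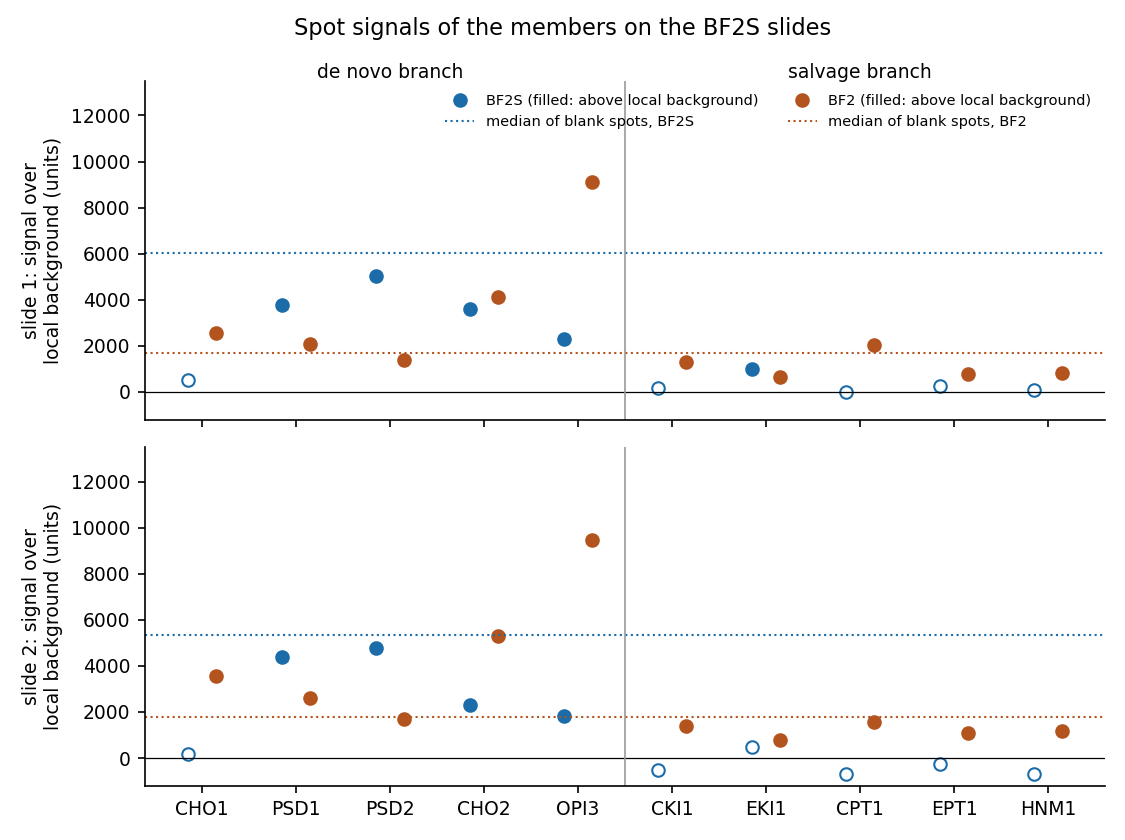
Signal over local background of each member on the 2 BF2S slides, the sample labelled BF2S in blue left of BF2 in brown, with filled points above local background and dotted lines at the median of blank spots in each channel. Every blue point lies under the blue dotted line, at 6049 and 5325 units, and CHO1, CKI1, CPT1, EPT1 and HNM1 are open blue points on both slides.

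The branches were not set against each other on these slides, since 4 of the 5 salvage members were not above background for BF2S. The fitted salvage median, -2.39, is the value of CKI1, for which the bound was 1.32-fold. When spots carrying an unexplained flag were left out, the salvage median was -0.034. It then covered the 3 salvage members left with a value, each from the first slide alone. The de novo median was 0.20, and turned to -0.53 with median centring and to -0.32 in the authors' deposited table. The blank spots stood above the members in the BF2S channel by the values given, and their part in these ratios was not tested. Of the 41 further pathway genes 34 were above background in at least 1 channel, and 0 were called higher and 11 lower. These counts stand beside 19.3% of 5290 genes called higher and 25.1% called lower, and are given as a description. For 8 of the 11 the BF2S channel was not above background. Those 8 were GPT2, CDS1, DPP1, ITR1, FAS2, PLB2, SAH1 and ADO1. FAS1, ACC1 and SAM2 were called lower with BF2S spots above background on at least 1 slide, at -2.80 ± 0.06, -1.32 ± 0.11 and -1.24 ± 0.23. For FAS1 and SAM2 this was the first slide only. Their BF2S signals and those of ACC1, at most 2048 units, lay below the blank medians of that channel, so these ratios too are near the floor.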

How the data were processed

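Per the labels, RNA was amplified by the Eberwine method, copied to cDNA and labelled with Cy5 or Cy3. The deposited scanner files give, per the file headers, spot and local background intensity at 635 nm and 532 nm. Scanner, software, labelled strand and probe sequences: not given in the sources used here. The deposited value table holds log2 ratios, whose direction, strain over BF2 in all 4 columns, was settled against the scanner values. Its columns have medians of 0.20, -0.29, 0.23 and -0.80 and were centred before use.

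Spot medians were corrected in limma 3.58.1 (R 4.3.3) by normexp with an offset of 50, then by loess fitted to gene spots, and 3 spots were averaged. The labelled dyes set the sign, strain over BF2. A spot was above background when it exceeded the local background mean plus 2 SD. A bound sets the mean of the bright channel against the higher of the dim signal and the lowest signal above background, after loess and Aquantile. That floor is lenient, since signals not above background can lie over it, so a bound is not a strict lower limit. A bound rests on the loess correction and holds for the main processing only. Signals are mean spot median minus local background, before loess. Of 6388 probes, 5849 were matched to the RefSeq gene table. Both slides of a comparison hold 1 RNA pair, so no test was made, as planned, and precision is limited by the number of slides. The normalization and the 2-fold rule were run on a simulated dye-swapped pair of slides, with changes planted only in genes brighter than the median. The simulation did not cover dim genes, the background filter, the bounds or slides with bright blank spots. Python 3.11.15 and matplotlib 3.10.9 made tables and figures.

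Members, lists and call rules were chosen with earlier results of these data known. All 10 members are named, and of each other list its called genes or, where none was called, the 2 with the largest ratios. Exceptions are marked. Spots carrying the files' unexplained negative flag, between 0% and 67.3% of gene spots per slide, were kept. Alternatives changed background correction, offset, within-slide and between-slide normalization, spot summary, marked spots, thresholds, filters and slides.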

Additional observations from a re-analysis of the deposited data

Results flagged for a closer look

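For 6 members the fitted ratios to BF2 had opposite signs on every slide of the sample labelled BF2S and every slide of BF2B. Of all genes that passed the filter, 31.6% were higher on both BF2B slides and 45.0% were lower on both BF2S slides. The share of all genes with opposite signs was not counted, so the 6 members are not read as unusual. The difference was not tested, and both comparisons share BF2. In 5 of the 6, all but OPI3, the spots of BF2S did not exceed background on either slide, so their ratios there are fitted values at the floor and not measured sizes. OPI3, above background in both, had a log2 ratio of -0.65 ± 0.59 in the sample labelled BF2S over BF2 and of 0.80 in BF2B over BF2. Its signals in the sample labelled BF2S, 2307 and 1814 units, lay below the blank medians of that channel, 6049 and 5325 units. Over the settings and single slides its ratio there ran from -1.93 to -0.24. CHO1 had -2.11 in the sample labelled BF2S, where the bound in the main processing was 3.22-fold lower, and 0.73 in BF2B. CPT1 had -3.76 in the sample labelled BF2S, where the bound was 1.74-fold, and 0.87 in BF2B. CKI1 had -2.39 in the sample labelled BF2S, where the bound was 1.32-fold, and 0.43 in BF2B. HNM1 had -2.64 in the sample labelled BF2S, where the bound was 1.09-fold, and 0.99 in BF2B. EPT1 had -1.28 in the sample labelled BF2S, where no bound above 1 could be given and the direction is therefore unsupported, and 1.03 in BF2B.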

How the results depend on the processing

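Leaving aside single slides, 69 of 70 member values in BF2B over BF2 kept their sign under the alternatives and 59 stayed within 1 technical SD. In BF2S over BF2, 65 of 67 kept their sign and 40 stayed within 1 SD. No called value changed sign. The calls moved more. Of the members in BF2B, where 1 was called, thresholds of 1.5-fold and 3-fold called 5 and 0, both channels above background called 0 and left 5 in 1 direction, and scaling between slides called 5. Either slide alone called between 2 (PSD1 and HNM1, without replicate 1) and 3 (PSD1, OPI3 and EPT1, without replicate 2). Over all genes in BF2B, 139 were called, but 411 at 1.5-fold, 30 at 3-fold, 445 with scaling and between 224 and 227 on a slide alone. Scaling sets the spread of all 4 slides equal, so by construction it widens BF2B and narrows BF2S. With it the BF2B medians were 1.34 for the de novo and 1.55 for the salvage branch. The salvage median, 0.87 as reported, was also 0.93 with both channels above background, 0.98 in the deposited table, 0.81 without background subtraction and between 0.74 and 0.80 on a slide alone.

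In BF2S over BF2, where 6 members were called, 0 were with a filter at the 95th percentile of blank spots and 1 of 6 was left lower on both slides. Both channels above background called 1 (PSD2) and left 1 lower on both slides. Values of the deposited table called 3 (CHO1, PSD2 and OPI3) and left 3 lower, and leaving out flagged spots called 2 (CHO1 and PSD2) and left 2 lower. Of all genes 2351 were called, but 1102 at 3-fold, 720 with the blank filter, 780 with both channels above background, 1303 without flagged spots and 849 with scaling. The de novo median, 0.20 as reported, was 0.71 with both channels above background, -0.32 in the deposited table, 0.086 without flagged spots, -0.53 with median centring and 0.12 with scaling. The salvage median, -2.39 as reported, was -2.72 in the deposited table, -0.034 without flagged spots, -2.52 with median centring, -2.45 with the median of spots, -1.35 without background subtraction, -2.59 with an offset of 10, -1.34 with scaling and between -2.34 and -2.28 on a slide alone. Apart from scaling and the stricter filters, the cause of these moves was not tested. Signal over background limits PSD2, EKI1 and the BF2 values of PSD1, CKI1 and EPT1 in BF2B, and nearly every member in BF2S. No paired analysis was possible because both slides of a comparison hold 1 RNA pair and no test was made.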
